A study of Mus musculus with 4 samples.

Results

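The genes described here encode splicing factors and heterogeneous nuclear ribonucleoproteins (hnRNPs). They were taken by symbol from the table of regularised log (rlog) values: every gene whose symbol begins with Srsf or with Sf3a or Sf3b and a digit, or with Hnrnp, Snrp or U2af. This gave 53 genes of the 9546 in that table, namely 10 SR protein genes, 20 hnRNP genes, 7 genes of the Sm core, 4 genes of U1 and U2 small nuclear ribonucleoprotein (snRNP) proteins, 9 genes of the SF3A and SF3B complexes, 2 genes of the U2AF heterodimer and 1 pseudogene, Srsf3-ps. A further 8 genes of the count table match the same letters but fell below the filter on low counts. Of these, Srsf12, Snrpn, Hnrnpa1l2-ps, Hnrnpa1l2-ps2, Snrp1c-ps1 and Snrp1c-ps2 had 0 counts in every library, U2af1l4 had 2 counts in all, and Snrpert had 1 or 2 counts in each library.

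All 4 libraries came from spleens of Tg4 Nr4a3-Tocky Il10-EGFP mice, whose T cells bear a transgenic receptor for a peptide of myelin basic protein. The mice also carry a Timer protein, driven by Nr4a3, that marks recent receptor signaling, and an EGFP reporter of Il10. Every mouse had received 4 mg/kg of [4Y]-MBP peptide under the skin 24 h earlier, so neither population was unstimulated, and the ages of the mice were not given in the sources used here. CD4+ Timer+ T cells were sorted into Il10-EGFP+ and Il10-EGFP- populations, with 2 libraries of each, and the comparison asks how cells transcribing Il10 differed from other recently activated cells of the same clonal specificity. The labels give no mouse identifier, although the study's methods speak of sorting from biological replicate mice. The main fit treats the 4 libraries as independent, and a replicate block was fitted as an alternative. Its p-values rest on a spread between libraries that, with 2 libraries per population, is estimated largely from all genes together. A further replicate pair, which the study's methods describe as removed after principal component analysis, was not analysed here.

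Splicing removes introns in steps that these proteins carry out in turn. U1 snRNP recognises the 5′ splice site, the U2AF heterodimer binds the polypyrimidine tract and the AG of the 3′ splice site, and U2 snRNP with its SF3A and SF3B subcomplexes settles on the branch point. Each of these snRNPs is built on a ring of Sm proteins that the SMN complex loads onto the small nuclear RNA in the cytoplasm, while SR proteins and hnRNPs bind exons and introns and often push splice site choice in opposite directions. In T cells, activation is accompanied by changes in splicing, of which the variable exons of the phosphatase CD45 are the best known case.

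The 3′ end method gives reads near the end of a transcript, so that levels rest on that end and counts do not scale with length. Total counts ran from 644679 to 730330 per library. Levels are given as TMM-scaled CPM (counts divided by the scaled library total) and differences as log2 fold changes of Il10-EGFP+ over Il10-EGFP- T cells, with a standard error (SE) where given. Il10 itself, which checks the sort, had 29 and 41 counts in Il10-EGFP+ T cells and 0 in both other libraries. Summed levels of 6 CD4 T cell markers overlapped, at 2298 and 2068 CPM in Il10-EGFP- and 2480 and 2245 CPM in Il10-EGFP+ T cells. Markers of other cells were low. Those of B and plasma cells (102 and 149 against 398 and 469 CPM, 3 of 5 tested genes higher) and myeloid cells (95 and 131 against 333 and 176 CPM, 2 of 6 higher) were higher in Il10-EGFP+ libraries. Erythroid markers (141 and 97.7 against 195 and 154 CPM) were also higher in both Il10-EGFP+ libraries, with no called gene. The range of CD8 or NK markers (38.0 to 66.4 CPM, Ncr1 at 0) held no called gene either. Cell division markers of the G2/M phase summed to 2311 and 2288 CPM in Il10-EGFP- and 4426 and 4335 CPM in Il10-EGFP+ T cells, with 5 of 8 genes higher. The part of these differences in the results below was not tested, and in sorted bulk libraries fewer cells of a type cannot be told apart from less RNA per cell.

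Across the 53 genes, 1 gene was called by the edgeR quasi-likelihood test (Benjamini-Hochberg adjusted p under 0.05 over all genes tested). This was Sf3b3, which was lower in Il10-EGFP+ T cells, and 0 members were called higher. Over the 9608 genes tested, 393 genes (4.09%) were called, 226 higher (2.35%) and 167 lower (1.74%), so that 1 of 53 members (1.89%) is near the background for lower calls. Among the 2609 genes averaging 50 counts or more, where most members lie, the share called was 9.39% (4.79% higher and 4.6% lower), against 1 of 46 members (2.17%). At an unadjusted p under 0.05, 7 members were lower (Sf3b3, Hnrnpdl, Snrpc, Sf3b4, Snrpb, Hnrnph2 and Srsf7) and 1 was higher (Hnrnpul1). These 8 members made up 15.1% of the genes, beside 15.5% over all genes tested (7.49% lower and 7.96% higher) and 25.6% of the more abundant ones (13.5% lower and 12.1% higher).

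The members lay close to equal levels, with more of them below than above. Their median log2 fold change was -0.14, beside 2.54e-05 for all genes tested and -0.02 for genes averaging 50 counts or more. In all, 37 of 53 members were below 0, or 69.8%, beside 50% of all genes tested and 53.0% of those averaging 50 counts or more. The libraries of both populations did not overlap, with Il10-EGFP+ lower, for 20 members (37.7%, background 22.3%, or 28% at 50 counts or more), and with Il10-EGFP+ higher for 7 members (13.2%, background 22.3%, or 25.0% at 50 counts or more). The median was smaller, at -0.06, without Il10-EGFP- replicate 2, where 31 members were below 0, and -0.07 without Il10-EGFP+ replicate 1, where 34 were.

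**Figure D1:**
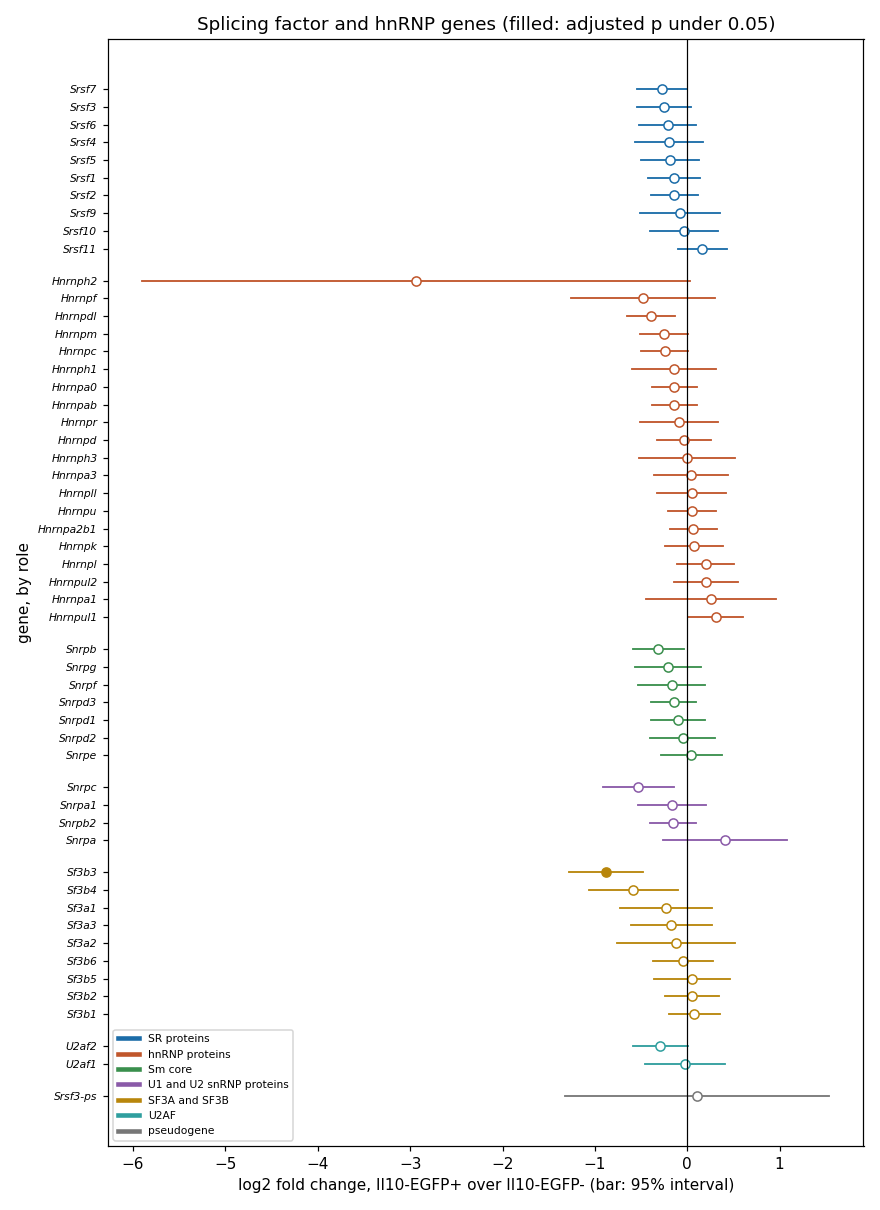
Log2 fold change of Il10-EGFP+ over Il10-EGFP- T cells for each of the 53 genes (circles) with its 95% interval (bars), grouped by role and coloured by group. The filled circle is Sf3b3, the only member with an adjusted p under 0.05, at -0.88, and most other circles lie just left of the line at 0.

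The fitted intervals were narrow for most members, but they rest on 2 libraries per population and a spread estimated largely from all genes together. The 95% interval of the log2 fold change stayed within a 2-fold change for 47 of 53 members, beside 38.9% of all genes tested. Among members averaging 50 counts or more this held for 44 of 46 (95.7%), beside 87.8% of all such genes. The interval stayed within 0.5 on the log2 scale for 22 members (41.5%, background 7.48%). All 22 were among the 46 more abundant members (47.8%, background 27.6%). Narrow intervals went with abundant genes such as Hnrnpa0, from -0.38 to 0.10, and Sf3b1, from -0.20 to 0.35. The widest belonged to Hnrnph2, with 7 and 3 counts without Il10-EGFP and 1 and 0 counts with it, for which no fold is given.

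**Figure D2:**
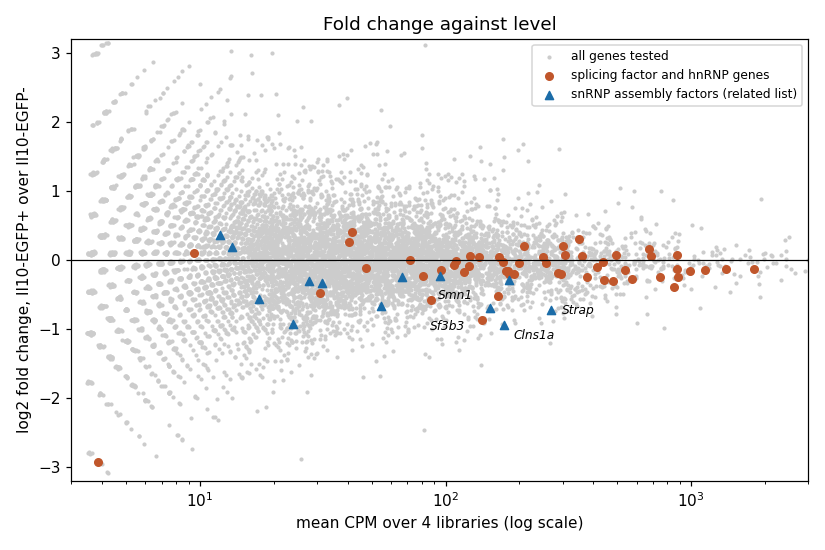
Log2 fold change against mean CPM on a log scale for all genes tested (grey dots), the splicing factor and hnRNP genes (circles) and the snRNP assembly factors of a related list (triangles), with genes beyond the axis limits not drawn. Most members are abundant genes near 0, while Sf3b3, Clns1a, Strap and Smn1 lie between -0.94 and -0.70.

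Of the 9 SF3A and SF3B genes, Sf3b3 and Sf3b4 were the members furthest below 0. Sf3b3 encodes a large scaffold subunit of SF3B, the U2 snRNP subcomplex that holds the branch point. Its level was 204 and 162 CPM in the Il10-EGFP- libraries and 91.9 and 107 CPM in the Il10-EGFP+ libraries (150 and 111 against 58 and 74 counts). Both Il10-EGFP+ libraries lay well below both Il10-EGFP- libraries. The means were 183 ± 29.5 and 99.3 ± 10.5 CPM (SD, n = 2 each), a log2 fold change of -0.88 ± 0.20 (SE) with a Benjamini-Hochberg adjusted p of 0.00419 (edgeR, quasi-likelihood). The call was lost with DESeq2 (adjusted p = 0.119), without Il10-EGFP- replicate 1 (-0.70, adjusted p = 0.137 with edgeR) and without Il10-EGFP+ replicate 1 (-0.78, adjusted p = 0.0592 with edgeR), all with the same direction.

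Sf3b3 (ENSMUSG00000033732) lies on the minus strand of chromosome 8 of GRCm38, at chr8:110810239-110846787. Its exons overlap those of Cog4, a Golgi trafficking gene that is transcribed in the other direction, and the RefSeq starts of the gene pair lie 203 bases apart. Whether the counting used strand is not given in the sources used here. The overlap lies at the 5′ ends of both genes, since Cog4 begins at chr8:110846600, while 3′ reads of Sf3b3 come from its other end. Cog4 had 61 counts in all (19 and 15 against 18 and 9), fewer than Sf3b3 in each library. The last 300 bases of the annotated Sf3b3 transcripts hold 251 sequences of 50 bases, and 0 of them occur in another annotated gene.

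The Sf3b3 promoter is shown because this was the member whose level differed. It is given as the 150 bases before the RefSeq transcription start on GRCm38.p6, chr8:110846804-110846953 on the minus strand, written 5′ to 3′ on the strand of the gene, and the window lies inside Cog4. Capitals mark matches to any of 5 motifs searched on both strands, the E-box (CACGTG), the GC box (GGGCGG), the ETS motif (CCGGAAG), the CCAAT box (CCAAT) and the TATA box (TATAAA), and this window held a TATA match.
Sf3b3: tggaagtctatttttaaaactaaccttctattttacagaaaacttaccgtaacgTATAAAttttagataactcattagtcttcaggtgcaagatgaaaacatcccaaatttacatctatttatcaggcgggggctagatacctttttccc
Over the 45 members with a window in the RefSeq table, the ETS motif was found in 11 (24.4%), beside 14.2% of the windows of 7373 tested genes and 5.52% of all 32851 windows. The CCAAT box was found in 40.0% of members (29.6% of tested genes, 24.5% of all windows), the GC box in 53.3% (55.9% and 28.6%), the E-box in 6.67% (6.59% and 4.3%) and the TATA box in 6.67% (2.74% and 7.57%). These counts describe letters in a window and not binding.

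Sf3b4, an RNA-binding SF3B subunit that contacts the intron near the branch point, stood at 117 and 93.4 against 68.1 and 72.1 CPM. Its libraries did not overlap, but the log2 fold change of -0.58 ± 0.24 (SE) had a Benjamini-Hochberg adjusted p of 0.188 (edgeR, quasi-likelihood). Sf3b1, the most abundant gene of the group and the subunit whose helical repeats close around the branch point, had 472 and 489 against 504 and 509 CPM. That small difference, 0.08 on the log2 scale, went the other way. The remaining subunits Sf3b2, Sf3b5 and Sf3b6 lay between -0.04 and 0.05, and the SF3A genes Sf3a1, Sf3a2 and Sf3a3 between -0.23 and -0.12, none of them called.

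**Figure D3:**
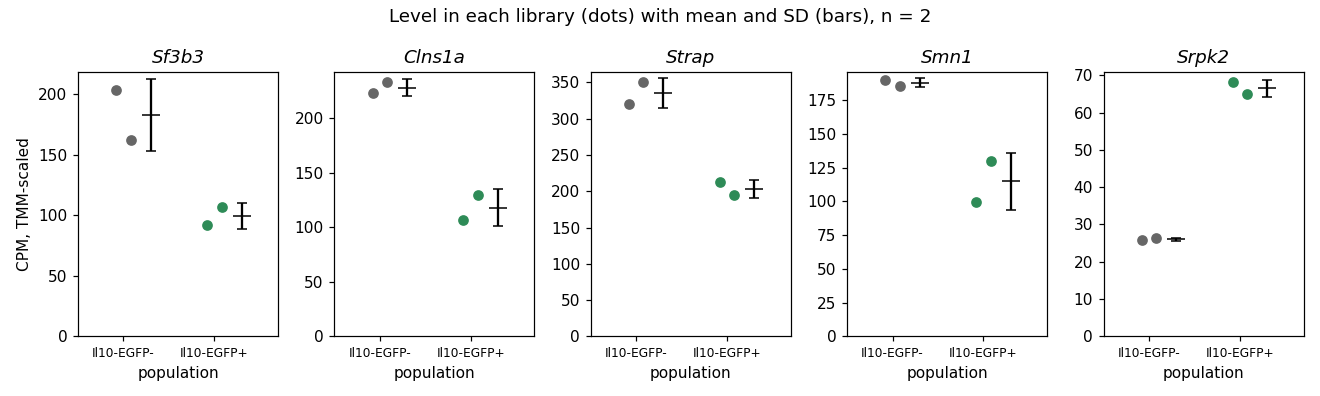
TMM-scaled CPM in each library (dots) with the mean and SD (bars, n = 2) for Sf3b3 and for the 4 called genes of the related lists. Sf3b3, Clns1a, Strap and Smn1 are lower in both Il10-EGFP+ libraries and Srpk2 is higher, with no overlap between populations in any panel.

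The Sm core genes and the U1 and U2 snRNP genes had 0 calls at an adjusted p under 0.05 with edgeR's quasi-likelihood test, and 1 member of each group, Snrpb and Snrpc, was under 0.05 before adjustment. DESeq2 called 0 of the 53 members and limma voom called 2, Sf3b3 and Hnrnpdl. The 7 Sm genes, which form the ring around the small nuclear RNA, summed to 2964 and 3029 CPM in Il10-EGFP- and to 2673 and 2725 CPM in Il10-EGFP+ T cells. Those sums did not overlap, and 6 of 7 genes were below 0, with a median of -0.15. Snrpd3 was the most abundant, at 1211 and 1183 against 1138 and 1024 CPM (log2 fold change -0.15). Snrpb, the ring subunit SmB, stood at 542 and 521 against 425 and 431 CPM, a difference of -0.31 with an adjusted p of 0.251 in edgeR's test. Snrpd1, Snrpd2, Snrpf and Snrpg lay between -0.20 and -0.05. Snrpe was the exception, with overlapping libraries and a log2 fold change of 0.05. Snrpb and Srsf7, Hnrnph2 and other genes not named by the rule in the methods were chosen after their values were seen.

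Snrpc encodes U1-C, the U1 protein that stabilises pairing with the 5′ splice site. It had 167 and 222 CPM in Il10-EGFP- and 125 and 143 CPM in Il10-EGFP+ T cells. The populations did not overlap, and its log2 fold change of -0.53 ± 0.19 (SE) had a Benjamini-Hochberg adjusted p of 0.107 (edgeR, quasi-likelihood). Snrpa, which encodes U1-A, had the most positive value among the members, 0.41 (SE 0.33), on few counts, 30 and 21 against 31 and 32. The U2 genes Snrpb2 (983 and 1109 against 917 and 959 CPM) and Snrpa1 (166 and 213 against 170 and 167 CPM) had log2 fold changes of -0.16 and -0.17.

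The SR proteins, which bind exonic enhancers through RNA recognition motifs and recruit U1 snRNP and U2AF through their arginine-serine tails, were below 0 in 9 of 10 cases. Their summed level was 4227 and 4271 CPM in Il10-EGFP- and 3866 and 3927 CPM in Il10-EGFP+ T cells, with no overlap and a median log2 fold change of -0.16. No SR protein gene was called, and 1 of 10, Srsf7, had an unadjusted p under 0.05 with edgeR. Srsf2 was the most abundant by 3′ counts, at 952 and 875 against 865 and 795 CPM, a log2 fold change of -0.14 ± 0.13 (SE). Srsf7 stood at 615 and 639 against 513 and 522 CPM, or -0.28 (SE 0.14), with an adjusted p of 0.31 in edgeR's test. Srsf3 and Srsf6 were also lower in both Il10-EGFP+ libraries, at -0.25 and -0.21. Srsf1, Srsf4, Srsf5, Srsf9 and Srsf10 lay between -0.20 and -0.04. Srsf11 was the exception, with 626 and 641 against 665 and 752 CPM and a log2 fold change of 0.16.

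For some SR genes the reads could not be assigned from sequence alone. All of the 404 sequences of 50 bases at the Srsf2 transcript ends lie in Mettl23 on the opposite strand, which had 70 counts in all, far fewer than Srsf2. The Srsf3-ps pseudogene, with 7 and 6 counts in each population, shares 69 of 251 such sequences with Srsf3, so that some reads from the pseudogene's end could not be told from Srsf3. Of the 251 sequences at the end of Srsf3 itself, 0 occur in another annotated gene. All 251 such sequences at the Srsf4 transcript end also occur in another annotated gene, and Gm12992, whose exons overlap those of Srsf4 on the opposite strand, had 0 counts.

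**Figure D4:**
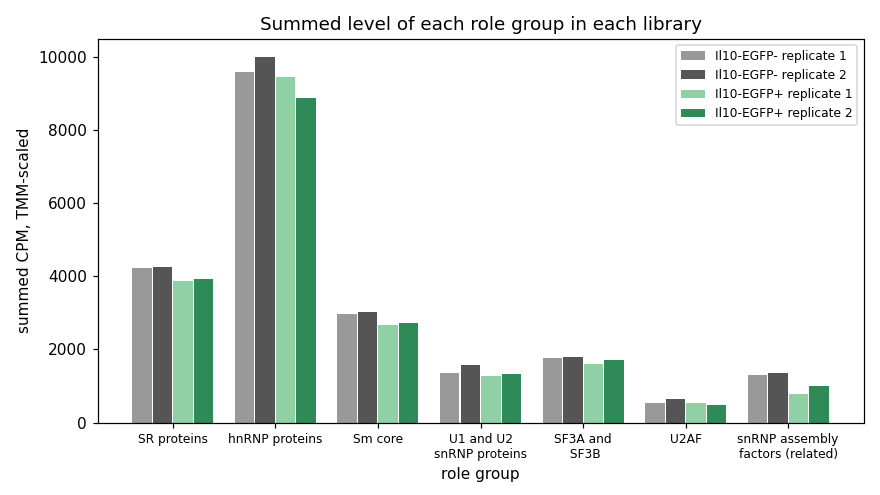
Summed TMM-scaled CPM of each role group in each of the 4 libraries, from 0, with the snRNP assembly factors of a related list at the right. Both Il10-EGFP+ bars lie below both Il10-EGFP- bars in all 7 groups drawn, which share the same libraries and scaling. Of single genes tested, 22.3% were lower without overlap. The closest bars, relative to their height, are for the hnRNP proteins (9474 and 8888 against 9595 and 10005 CPM) and U2AF (532 and 482 against 540 and 657 CPM). Taken singly, U2af1 and U2af2 each overlapped. The widest gap is for the assembly factors (794 and 1006 against 1313 and 1358 CPM).

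The 20 hnRNP genes, which coat nascent transcripts and among other roles silence splice sites, were spread evenly, with 11 below 0 and 9 above and a median of -0.02. No hnRNP gene was called, and 3 of 20 had an unadjusted p under 0.05 with edgeR (Hnrnpdl and Hnrnph2 lower, Hnrnpul1 higher). Hnrnpdl, a paralogue of Hnrnpd, came nearest. It had 706 and 670 counts without Il10-EGFP and 499 and 475 counts with it, or 968 ± 13.6 against 738 ± 74.5 CPM (SD, n = 2 each). The populations were well separated, with a log2 fold change of -0.39 ± 0.13 (SE) and a Benjamini-Hochberg adjusted p of 0.0722 (edgeR, quasi-likelihood). It passed the threshold in 4 of 18 alternatives, with adjusted p from 0.00791 to 0.503 over them, the highest being without Il10-EGFP+ replicate 2. Hnrnpd itself overlapped, at 470 and 413 against 483 and 381 CPM.

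Hnrnpa0 was the most abundant member by 3′ counts, at 1786 and 1989 against 1829 and 1600 CPM, and its libraries overlapped (-0.14, SE 0.12). Hnrnpc, which binds uridine tracts, and Hnrnpm were lower in both Il10-EGFP+ libraries, each at -0.25, with an adjusted p of 0.359 in edgeR's test for either gene. Among the hnRNP genes above 0, Hnrnpul1, which resembles Hnrnpu, led with 295 and 330 against 412 and 361 CPM, a log2 fold change of 0.31 ± 0.15 (SE) with an adjusted p of 0.309 in edgeR's quasi-likelihood test. Hnrnpul2 stood at 0.20 with overlapping libraries, at 171 and 217 against 212 and 234 CPM. Hnrnpab, Hnrnpa2b1, Hnrnpa3, Hnrnph1, Hnrnph3, Hnrnpk, Hnrnpr and Hnrnpu lay between -0.14 and 0.07, and none was called.

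Hnrnpl and its paralogue Hnrnpll are known as repressors of the CD45 variable exons in T cells. Hnrnpl had 274 and 285 CPM in Il10-EGFP- and 315 and 326 CPM in Il10-EGFP+ T cells, a log2 fold change of 0.20 with an interval from -0.11 to 0.51. Hnrnpll had 172 and 152 against 171 and 164 CPM, a log2 fold change of 0.05 with an interval from -0.32 to 0.42. Neither gene was called, and both intervals include 0.

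Hnrnpa1 and Hnrnpf were measured from few counts. Hnrnpa1 had 18 and 34 against 32 and 26 counts, with a log2 fold change of 0.26 that turned to -0.18 without Il10-EGFP- replicate 1. Hnrnpf, whose protein binds G-rich runs, had 22 and 29 against 18 and 16 counts and a log2 fold change of -0.48 (SE 0.39, adjusted p = 0.623 in edgeR's test), and 712 of the 1037 sequences of 50 bases at its transcript ends also occur in other genes. Such shared ends were found for 20 of the 53 members, including Hnrnpa3 (457 of 1173), Hnrnpk (707 of 2083) and U2af1 (329 of 459), and reads from them could have been dropped or placed elsewhere.

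The U2AF genes were not called. U2af2, the subunit that binds the polypyrimidine tract, stood at 419 and 554 CPM in Il10-EGFP- and at 437 and 358 CPM in Il10-EGFP+ T cells. Its libraries overlapped, and the log2 fold change was -0.29 (SE 0.15, adjusted p = 0.342 in edgeR's test). U2af1, which reads the AG at the intron end, was at 121 and 102 against 95.1 and 124 CPM, a log2 fold change of -0.02.

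Of other genes around the spliceosome, 126 were listed by function in 5 lists, and 123 were tested. Of these, 4 (3.25%, background 4.09%) were called with edgeR's quasi-likelihood test: Clns1a, Strap and Smn1 were lower in Il10-EGFP+ T cells and Srpk2 was higher. All 3 lower genes belong to the list of snRNP assembly factors, of which 13 of 15 were tested and 3 (23.1%) were called. Because the lists were chosen with earlier results of these data known, that share is a description and not a test. The assembly factor list had 11 of 13 genes below 0 and a median of -0.33. It summed to 1313 and 1358 CPM in Il10-EGFP- and 794 and 1006 CPM in Il10-EGFP+ T cells, sums that include the 3 called genes. The lists of other snRNP and tri-snRNP proteins (46 tested), other splicing regulators (30) and exon junction and cap-binding complexes (14) had 0 calls each, with 2, 6 and 2 genes at an unadjusted p under 0.05 with edgeR, and DESeq2 called none of their genes. Their medians were -0.10, -0.01 and -0.03, and that of the 20 SR-related proteins and SR protein kinases, Srpk2 among them, was -0.01.

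The promoters of the 3 assembly factors called lower are shown with the same capitals, so that they can be set beside that of Sf3b3. They lie at chr7:97696507-97696656 for Clns1a, chr13:100124705-100124854 for Smn1 and chr6:137734932-137735081 for Strap, all on the plus strand of GRCm38.p6 and ending at the base before the RefSeq start.
Clns1a: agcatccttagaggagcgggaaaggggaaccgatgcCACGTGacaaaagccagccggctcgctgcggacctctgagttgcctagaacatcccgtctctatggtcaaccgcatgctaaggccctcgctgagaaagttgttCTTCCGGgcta
Smn1: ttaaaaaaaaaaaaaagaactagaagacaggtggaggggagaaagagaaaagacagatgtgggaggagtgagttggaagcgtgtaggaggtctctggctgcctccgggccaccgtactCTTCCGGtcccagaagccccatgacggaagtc
Strap: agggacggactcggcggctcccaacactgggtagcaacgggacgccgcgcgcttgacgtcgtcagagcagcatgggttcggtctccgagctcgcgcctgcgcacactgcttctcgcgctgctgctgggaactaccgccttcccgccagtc
Clns1a held an E-box and an ETS match, Smn1 held an ETS match, and the Strap window held a match to none of the 5 motifs. The ETS match of Clns1a and Smn1 was the only motif found in more than 1 of the 4 windows. Over the 97 related genes with a window, the ETS motif was found in 20.6% and the E-box in 5.15%.

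Clns1a encodes pICln, the chaperone that holds Sm proteins before they are loaded. It had 164 and 160 counts without Il10-EGFP and 67 and 90 counts with it, or 228 ± 7.67 against 118 ± 16.7 CPM (SD, n = 2 each). This was a log2 fold change of -0.94 ± 0.19 (SE) with a Benjamini-Hochberg adjusted p of 0.000597 (edgeR, quasi-likelihood), and it was called with each library left out and with DESeq2. Prmt5 and Wdr77, the methyltransferase and its partner that modify Sm proteins beside pICln, had log2 fold changes of -0.29 and -0.66. Wdr77 had 46 and 49 against 24 and 32 counts, without overlap, and an adjusted p of 0.251 in edgeR's test. Prmt5 overlapped, with 139 and 146 against 76 and 142 counts, the low value being that of Il10-EGFP+ replicate 1.

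Smn1 encodes SMN, which with the Gemin proteins closes the Sm ring on the small nuclear RNA. It had 140 and 127 counts without Il10-EGFP and 63 and 90 counts with it. The populations did not overlap, with a log2 fold change of -0.70 ± 0.20 (SE) and a Benjamini-Hochberg adjusted p of 0.024 (edgeR, quasi-likelihood). The call was lost with DESeq2 (adjusted p = 0.278) and, with edgeR, without Il10-EGFP- replicate 1 (adjusted p = 0.12), Il10-EGFP- replicate 2 (0.0752) or Il10-EGFP+ replicate 1 (0.29). Strap, a protein bound to the SMN complex, had 236 and 240 against 134 and 135 counts. This log2 fold change of -0.72 ± 0.16 (SE) had an adjusted p of 0.00314 in edgeR's test, and 0.062 without Il10-EGFP+ replicate 2. Of the Gemin genes, Gemin5 and Gemin6 were at -0.30 and -0.33 and Gemin2 and Gemin7 at 0.37 and 0.18, each on at most 29 counts per library, and none was called. Snupn, which carries the assembled snRNP back into the nucleus, had 23 and 22 against 6 and 16 counts (adjusted p = 0.305 in edgeR's test).

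Srpk2, a kinase of the arginine-serine tails of SR proteins, was the called gene that was higher. It had 19 and 18 counts without Il10-EGFP and 43 and 45 counts with it, a log2 fold change of 1.35 ± 0.33 (SE) with a Benjamini-Hochberg adjusted p of 0.00793 (edgeR, quasi-likelihood). Counts were even within each population and far apart between them. It missed the threshold with DESeq2 (adjusted p = 0.185) and without Il10-EGFP- replicate 1 (0.0549 with edgeR). The transcript ends share 251 of 1075 sequences of 50 bases with Kmt2e on the opposite strand, which had 144 and 117 against 137 and 131 counts, so that without strand some reads of the gene pair could not be told apart.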

How the data were processed

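RNA (5 ng) from sorted cells was made into 3′ libraries (QuantSeq FWD). For the extraction, the labels name the PureLink RNA Micro kit and the study's methods the Arcturus Picopure kit. The submitters' processing notes name FastQC, STAR 2.5.2a, HTSeq 0.6.0 and DESeq2. Raw read counts for Ensembl genes (GRCm38) were deposited by the authors, together with log2 values from DESeq2's rlog transformation of those counts. According to the study's methods, unique molecular identifiers served to judge PCR duplicates and input and to counter amplification bias. The annotation release, the strand option and whether the deposited counts were collapsed by these identifiers are not given in the sources used here. Totals were 730330 and 686773 counts for Il10-EGFP- and 644679 and 700177 counts for Il10-EGFP+ libraries.

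edgeR 4.0.16 was run on every gene that reached 10 counts in all 4 libraries together (R 4.3.3, TMM, glmQLFit and glmQLFTest at their defaults), with Benjamini-Hochberg adjustment over all 9608 genes and a threshold of 0.05. Standard errors were derived from the F statistic and the fitted log2 difference. CPM values were computed here. DESeq2 1.42.0, limma 3.58.1, other scalings and filters, a replicate block and leaving out each library served as alternatives. The fits were also run on counts simulated from the means and dispersions of these libraries. Those counts hold no mouse effect, and the outcome is not reported here.

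Members were found by symbol. Srsf3-ps was matched through an older symbol, and 419 of 47643 identifiers had no name. Coordinates and shared sequences of 50 bases, over the last 300 bases of each transcript, came from GENCODE M21 on GRCm38, and promoters from RefSeq on GRCm38.p6. The genes named are members with an adjusted p under 0.05, the most abundant member of each role group, the 5 highest and 5 lowest members by log2 fold change among those averaging 10 counts or more, called genes of the related lists, and Il10. Others were chosen after their values were seen. The members and all lists were chosen with earlier results of these data known. No protein sequence was used here.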

Additional observations from a re-analysis of the deposited data

How the results depend on the processing

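Over all genes, the 393 calls became 112 with DESeq2 (which gave no adjusted p to 4284 genes, 2 of them members), 197 with limma on the rlog values, 177 at an adjusted p under 0.01, and 8 in an unfiltered edgeR fit that used bias-adjusted deviances. With 1 library left out they ran from 201 to 264. Calls among the 53 splicing factor and hnRNP genes, 1 and lower, became 2 with library size only, with at least 10 counts in every library and with limma voom, where Hnrnpdl joined Sf3b3. They became 0 with DESeq2 and with bias-adjusted deviances without a filter, and ran from 0 to 1 with each library left out. Calls in the related lists, 4, became 2 with DESeq2 and 0 with bias-adjusted deviances without a filter, and ran from 2 to 3 with each library left out. The members called higher stayed at 0 in all 18 alternatives, and their median log2 fold change stayed between -0.17 and -0.06. Over the 18 alternatives, Sf3b3 had an adjusted p under 0.05 in 13, Clns1a in 16, Strap in 15, Smn1 in 11 and Srpk2 in 14, each with its direction kept. Of the 53 members, 34 kept their sign in all 4 fits that left out a library. Hnrnpa1 turned from 0.26 to -0.18 without Il10-EGFP- replicate 1, and ran from -0.18 to 0.84 with each library left out. The causes were not tested.

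Same-numbered libraries were not shown to pair, since their deviations from the population means correlated at 0.0351 over 4965 genes averaging 20 counts or more. A replicate block gave 560 calls over all genes with edgeR, 2 among the members (Sf3b3 and Hnrnpdl) and 8 in the related lists. With DESeq2 the replicate block gave 39 calls over all genes, 0 among the members and 0 in the related lists, and no adjusted p for 6147 genes. With 2 libraries per population and at most 730330 counts in each, changes of genes with few counts, such as Hnrnph2, Hnrnpa1 and Hnrnpf, could not be resolved.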

Other observations

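Among the 30 other regulators of splicing tested, none was called, and 16 were below 0 and 14 above. At an unadjusted p under 0.05 with edgeR, 4 were lower (13.3%, background 7.49%, or 13.5% at 50 counts or more). The 2 that were higher (6.67%, background 7.96%, or 12.1% at 50 counts or more) were Cirbp and Ptbp3. Taf15, an RNA-binding protein that also associates with TFIID, had 191 and 147 counts without Il10-EGFP and 104 and 125 counts with it, a log2 fold change of -0.46 and a Benjamini-Hochberg adjusted p of 0.141 (edgeR, quasi-likelihood). Elavl1, which encodes the RNA-binding protein HuR, had 104 and 111 against 62 and 72 counts and a log2 fold change of -0.58 (adjusted p = 0.0997 in edgeR's test). Rbm17, a factor of 3′ splice site choice, had 289 and 240 against 170 and 186 counts, a log2 fold change of -0.47 with an adjusted p of 0.0718 in edgeR's test, and it passed the threshold with at least 10 counts in every library. For these 3 genes the populations did not overlap. They were chosen after their values were seen.

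In the exon junction complex, Eif4a3, its helicase, had 426 and 359 against 295 and 268 counts (log2 fold change -0.37, adjusted p = 0.142 in edgeR's test), and Rbm8a, its Y14 subunit, had 687 and 635 against 515 and 504 counts (-0.27, adjusted p = 0.288 in edgeR's test). Ptbp3, a paralogue of the polypyrimidine tract-binding protein Ptbp1, was at 307 and 290 against 307 and 375 counts, a log2 fold change of 0.29 with an adjusted p of 0.298 in edgeR's test. None of these genes was called.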
